A study of Petromyzon marinus with 6 samples.

Results

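The loci described here are 42 transcribed loci of the sea lamprey brainstem that carry a gene symbol in the list of loci drawn up from a separate experiment with baclofen, an agonist of the GABAB receptor. That list holds 82 loci, of which 52 have a symbol, and 10 of those 52 were set aside by name, which left 42 of the 57134 loci in the count table. The 42 loci carry 40 symbols, since DYRK2 and TNFAIP3 each name 2 loci. The baclofen samples, on which the list was drawn up, were not analysed here. All values below come from the GABA experiment. The rule for choosing the loci did not use its counts, but the members were chosen with earlier results of these data known. Of the 42, 0 stand on the corresponding list of 23 loci for GABA. The 10 loci set aside and those without a symbol are outside this count. It therefore does not show that the lists share no locus. The values for the 42 do not describe the loci set aside, among them CREM and KLF10.

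In the GABA experiment, 3 GABA-treated samples were compared with 3 Control samples. GABA, the neurotransmitter γ-aminobutyric acid, was given at 500 µM in the water, and Control animals were kept without it. All animals were larval sea lampreys of 5 to 7 years from the river Ulla, and every animal of both groups had a complete spinal cord transection, so neither group holds uninjured animals. Brainstems were taken at 29 days post-lesion (dpl) according to the methods of the study, whereas the deposited description gives 9 days. Each sample pooled 4 brainstems, so the spread between samples is the spread between pools.

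The brainstem of the lamprey holds the neurons whose axons run down the spinal cord and are cut by a transection, along with local neurons, glia, meninges and blood cells. GABA acts on ionotropic GABAA receptors, which pass chloride, and on GABAB receptors, which act through G proteins. The symbols of the 42 loci fall into 9 functional groups, among them signalling kinases, immune genes, metabolic enzymes and extracellular proteins. Several of them, such as SGK1, DUSP1, PIM1 and TAT, are known in mammals as genes whose mRNA responds quickly to stress hormones, growth factors or cytokines.

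Total counts were between 13266414 and 14666153 in the GABA samples and between 12261374 and 14248306 in the Control samples, and the 10 loci with the most counts held 3.79% to 4.30% of them. By the quasi-likelihood test of edgeR, adjusted after Benjamini-Hochberg, 0 of the 24300 loci tested had an adjusted p under 0.05 (0%), the smallest adjusted p was 0.504, and 1591 loci (6.55%) had an unadjusted p under 0.05. DESeq2 with its default settings called 23 loci and edgeR without a count filter 58, and each called 0 of the 42. The default filter of DESeq2 gave many of the 42 no adjusted p, among them PHF2 and both TNFAIP3 loci. Such loci could not have been called there. Neuronal transcripts were abundant in every sample. The 5 neuron markers were CPLX1, MAP6, CASK, GABRA5 and CARTPT, and GABRA5 and CARTPT are not among the 42. The summed normalized counts of the 5 were 16859 to 19936 in the GABA samples and 17702 to 20143 in the Control samples. CPLX1 gave most of each sum, and MAP6, another of them, was near 0. Of the 4 neuron markers tested, 2 had a log2 fold change (GABA over Control) above 0 and 2 below 0. The summed counts of the glial markers SoxE1 and VIM were 6904 to 8399 in the GABA samples and 8541 to 10839 in the Control samples, without overlap. The SoxE1 counts by themselves overlapped, so VIM, which gave most of each sum, carries the separation. VIM is not among the 42. Markers could be matched only to loci named in the study's lists for baclofen and for GABA, the latter drawn up from these samples. A marker on the GABA list would have been selected for a difference between these samples. The separation of the glial sum is therefore not read as a difference in glia. Nor is the overlap of the neuron sums, or the split of their signs, read as equal neuron content. The groups did not overlap at 12.2% of all loci tested. The part of such marker levels in the results below was not tested.

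Of the 42 loci, 40 had enough counts to be tested, and none of the 40 passed the test. A total of 19 loci had a log2 fold change (GABA over Control) above 0 and 21 had one below 0, where 48.5% of all loci tested were below 0. The split was 24 above and 16 below when counts were scaled by library size only, where the median of all loci tested was 0.05. Without Control replicate 3 it was 12 above and 28 below, with a median of all loci tested of 0.00. In the main fit the median of the 40 loci was −0.01, against 0.01 over all loci tested. The single values lay between −0.78 (PHF2) and 0.50 (one of the 2 TNFAIP3 loci). The smallest adjusted p among them was 0.729 (edgeR's quasi-likelihood test, Benjamini-Hochberg adjustment), and 0 of 40 were called, against 0% of all loci tested. Before adjustment, 0 of the 40 had a p under 0.05 with higher counts in the GABA samples, against 3.08% of all loci tested. A single locus, KITB, had one with lower counts, against 3.47% of all loci tested. The GABA and Control samples lay apart without overlap in 2 of 40 loci, against 12.2% of all loci tested. At COL6A6 the GABA samples were higher, against 5.14% of all loci tested, and at KITB they were lower, against 7.06%. The highest of the 6 samples was GABA replicate 1 at 10 of the 40 loci (15.7% of all loci tested), Control replicate 2 at 10 (14.7%) and Control replicate 3 at 9 (24.3%). GABA replicate 3 was the lowest at 11 loci (17% of all loci tested) and Control replicate 1 at 1 (13%). The 30 loci of the same list without a symbol, of which 24 were tested, had a median of −0.08, with 8 above and 16 below 0, and 0 with an adjusted p under 0.05.

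The precision differed between loci. The standard error of the log2 fold change was 0.06 for CLCN2, 0.45 for PHF2 and 0.14 in the median of the 40 loci, against a median of 0.18 over all loci tested. The 95% interval excluded 0 at 1 locus, KITB, and lay within ±0.5 at 25 loci and within ±1 at 36 loci. For those 36 loci a change of 2-fold or more in either direction is thus outside the interval, and for the other 4 the interval reached a 2-fold change in 1 direction.

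**Figure D1:**
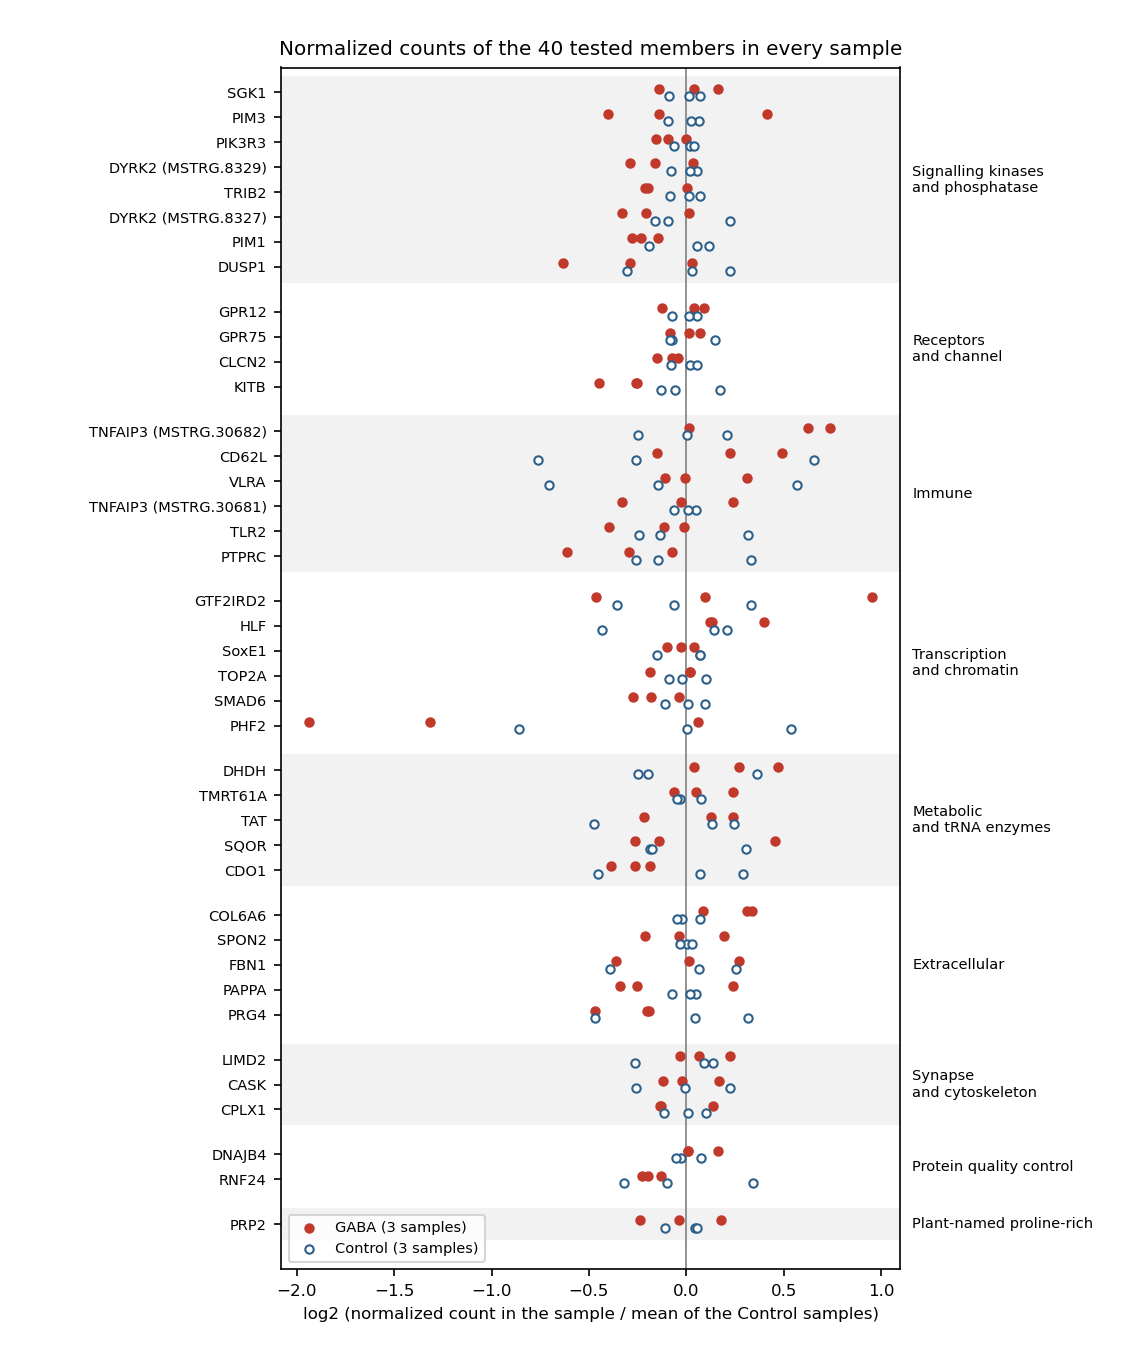
Normalized counts of the 40 tested loci in every sample, on the x axis as the log2 ratio to the mean of the Control samples, with 1 line per locus and the functional groups at the right. Filled red points are the 3 GABA samples and open blue points the 3 Control samples. The points of the groups lie apart only for KITB and COL6A6, and PHF2, GTF2IRD2, CD62L and VLRA have the widest scatter.

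**Figure D2:**
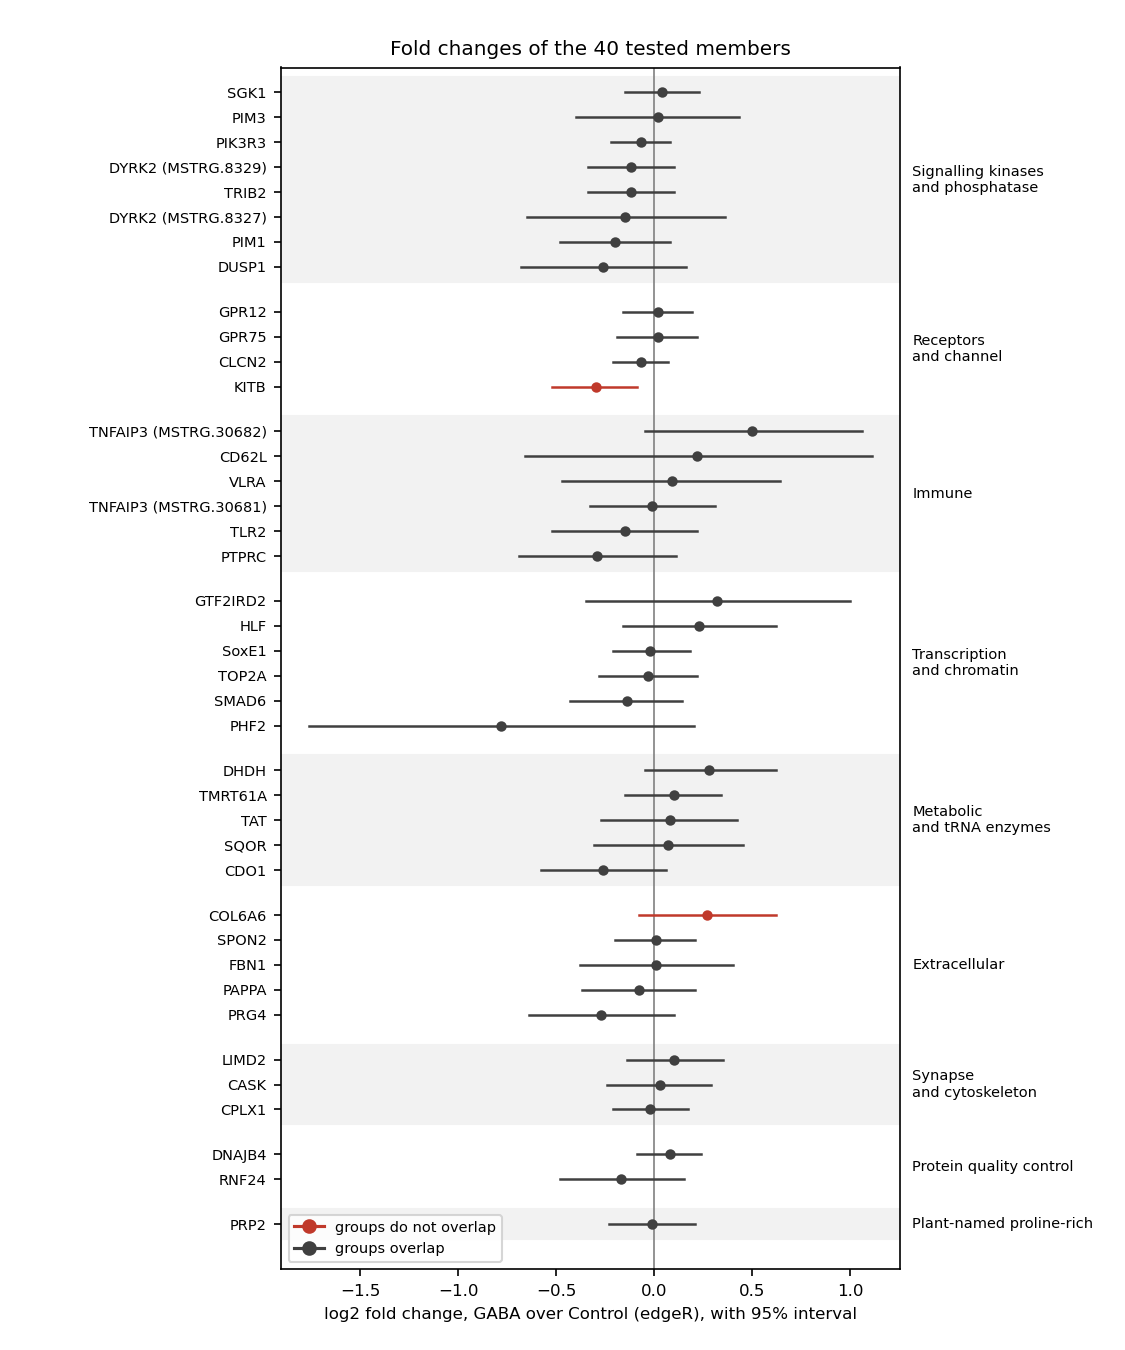
Log2 fold change (GABA over Control) of the 40 tested loci from edgeR, on the x axis, with its 95% interval as a bar. Red marks the loci whose groups do not overlap, KITB and COL6A6, and the interval excludes 0 only for KITB.

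Levels were compared between loci per exon length, as fragments per kilobase of exon scaled to the library total (FPKM). The most abundant of the 42 loci was CPLX1 at a mean of 85.5 FPKM, rank 376 of the 24300 loci tested, and it had the highest level of the 42 in 5 of 6 samples. PRP2 followed at 75.8 FPKM and was first in the remaining sample, then TAT at 54.1, DHDH at 39.3 and PIK3R3 at 24.8 FPKM. The lowest tested locus was CD62L at 0.27 FPKM. The median of the tested loci was 4.65 FPKM, against 3.26 FPKM over all loci tested, and 27 of 40 lay above that value. In the plot of all loci by mean level, the loci described here are spread over most of the range.

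**Figure D3:**
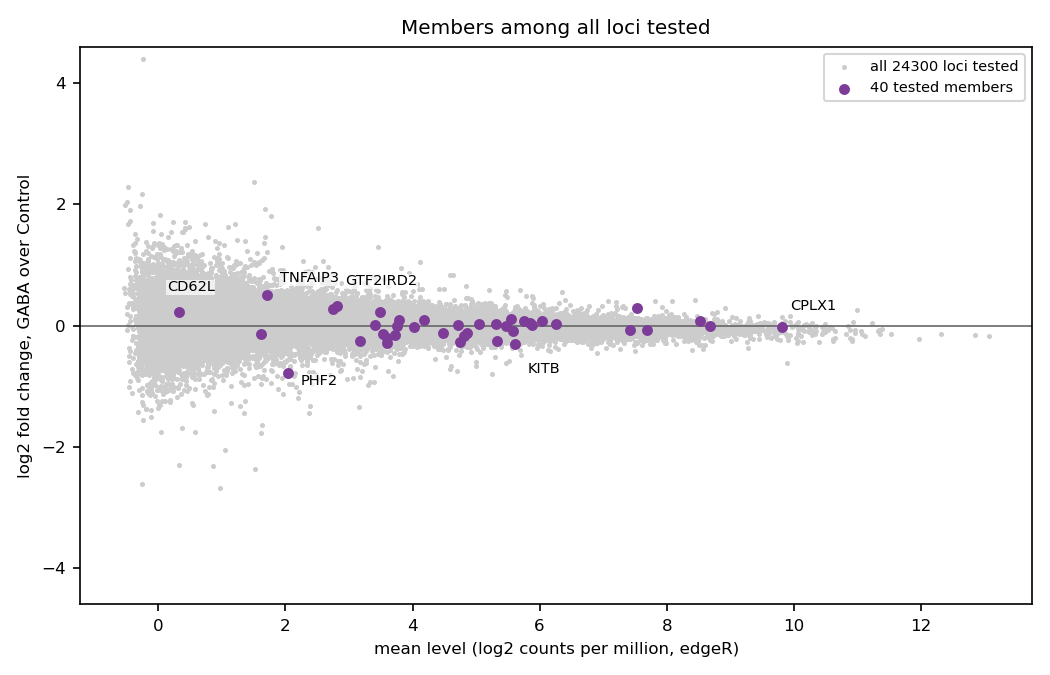
Log2 fold change (GABA over Control, y axis) against mean level (log2 CPM, counts scaled to the library total, x axis) for all 24300 loci tested (grey) and the 40 tested loci described here (purple). All purple points lie between −0.78 and 0.50 on the y axis, and those farthest from 0, PHF2 and TNFAIP3, lie toward the left of the purple points.

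The signalling group holds 8 loci: 5 kinase loci (DYRK2 at 2 loci, SGK1, PIM1 and PIM3), the pseudokinase TRIB2, the phosphatase DUSP1 and PIK3R3, a regulatory subunit of phosphatidylinositol 3-kinase. None passed the test, 2 log2 fold changes were above 0 and 6 below, and the median was −0.12. PIK3R3, which has the most counts of the group, had 2097, 2335 and 2190 normalized counts in the GABA samples and 2368, 2401 and 2238 in the Control samples. The ranges overlapped in 1 GABA sample, and the log2 fold change was −0.07 ± 0.07 (SE, n = 3 per group; adjusted p = 0.896 by edgeR). PIM1, a serine/threonine kinase that in mammals supports the survival of blood cells and is induced by cytokines, had 146, 155 and 141 normalized counts in the GABA samples and 178, 150 and 186 in the Control samples. Control replicate 2 lay among the GABA samples, and the log2 fold change of PIM1 was −0.20 ± 0.13 (SE), the smallest p of the group (edgeR adjusted p = 0.817).

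The intervals of the other signalling genes all included 0. SGK1, a kinase that in mammals is induced by glucocorticoids and regulates ion channels and transporters, had a log2 fold change of 0.04, and that of PIM3 was 0.02. TRIB2, which brings other proteins to ubiquitin ligases, stood at −0.12, and DUSP1, which removes phosphate from MAP kinases, at −0.26 ± 0.19 (SE; adjusted p = 0.83 by edgeR's quasi-likelihood test). With each sample left out in turn, 6 to 8 of the 8 log2 fold changes were below 0, and all 8 without GABA replicate 1, where PIM3 stood at −0.24. GABA replicate 1 was the highest sample for SGK1 and PIM3, so their downward move follows from leaving it out. The median of all loci tested was 0.01 in that fit. DUSP1 lay between −0.44 and −0.11 over the fits with a sample left out.

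DYRK2, a kinase known in mammals for phosphorylating p53 and the proteasome, is named at 2 loci on the same strand of contig PIZI01000010.1 in Pmar_germline 1.0. MSTRG.8327 lies at 9103797 to 9121649 and MSTRG.8329 at 9124413 to 9128734, with 2763 bases between them. MSTRG.8328, a locus of 346 exon bases on the same strand, lies in this gap and had 22 counts over all samples. The downstream locus, MSTRG.8329, had 409, 357 and 326 normalized counts in the GABA samples and 415, 404 and 378 in the Control samples, and the upstream locus, MSTRG.8327, had 32.6, 41.3 and 35.5 in the GABA samples and 36.7, 38.4 and 47.8 in the Control samples. The log2 fold changes were −0.12 ± 0.10 and −0.15 ± 0.23 (SE), with adjusted p of 0.863 and 0.934 (edgeR), and the groups overlapped at both. The upstream locus held 7.38%, 10.4% and 9.81% of the counts of the pair in the GABA samples and 8.11%, 8.67% and 11.2% in the Control samples, so the share did not separate the groups (two-sided exact permutation p = 1). Summed to a single value per sample, DYRK2 had a log2 fold change of −0.12 ± 0.09 (adjusted p = 0.84 by edgeR).

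**Figure D4:**
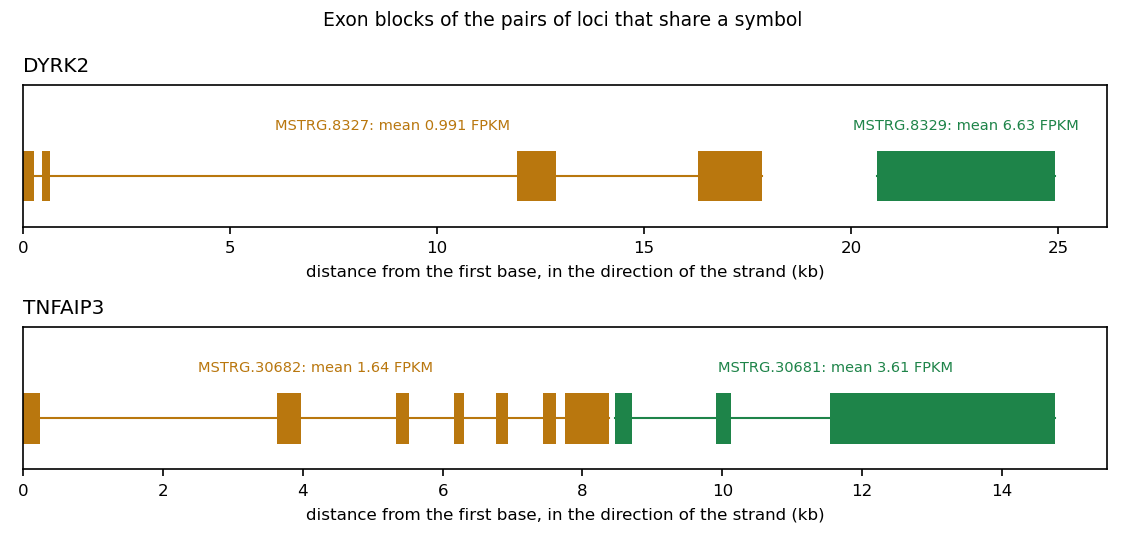
Exon blocks of the DYRK2 and TNFAIP3 loci, drawn to scale along the direction of the strand (x axis, kb from the first base), with the mean level of each locus in FPKM. Orange is the upstream and green the downstream locus of each pair, and the downstream locus has the higher level in both pairs, at 6.63 against 0.991 FPKM for DYRK2 and 3.61 against 1.64 FPKM for TNFAIP3.

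The receptors and channel are KITB, GPR12, GPR75 and CLCN2. KITB, a receptor tyrosine kinase of the Kit family, which in other vertebrates acts in pigment cells, germ cells and blood cells, had the smallest p of all 40 loci. It had 597, 600 and 523 normalized counts in the GABA samples and 652, 806 and 686 in the Control samples, so every GABA sample lay below every Control sample. The log2 fold change was −0.30 ± 0.10 (SE, n = 3 per group; 95% interval −0.52 to −0.09), with an unadjusted p of 0.00988 and an adjusted p of 0.729 by edgeR's quasi-likelihood test, so KITB did not pass. Across the alternatives its log2 fold change lay between −0.37 and −0.20 and its unadjusted p, in the edgeR, DESeq2 and limma fits, between 0.00252 and 0.0584. The value over 0.05 was reached only without Control replicate 2, the highest sample. The locus lies on contig PIZI01000021.1 at 3364537 to 3385621, on the plus strand, in 17 exon blocks.

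CLCN2, a chloride channel of glia and neurons, had 2543, 2735 and 2678 normalized counts in the GABA samples and 2861, 2673 and 2925 in the Control samples. Its log2 fold change of −0.07 ± 0.06 (SE; adjusted p = 0.868 by edgeR) was the most precise of the 40. GPR12, a receptor that in mammals raises cyclic AMP without an added ligand, and GPR75, a G protein-coupled receptor whose ligand is less clear, both stood at 0.02, with intervals of −0.16 to 0.19 and −0.19 to 0.22. A change of the size seen for KITB is outside both intervals.

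The immune group holds PTPRC, CD62L, VLRA, TLR2 and both TNFAIP3 loci. None passed the test, and the median was 0.04, with 3 above and 3 below 0, or 4 above and 2 below when scaled by library size only and 1 above and 5 below without Control replicate 3. The level of such transcripts in a whole brainstem can be lower because there are fewer cells of a type or because each holds less RNA, and these cannot be told apart here. PTPRC, a phosphatase on the surface of leukocytes, had 143, 167 and 115 normalized counts in the GABA samples and 147, 221 and 159 in the Control samples. The groups overlapped, and the log2 fold change was −0.29 ± 0.18 (SE; adjusted p = 0.817 by edgeR).

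TLR2, a receptor for bacterial lipoproteins, had 169, 182 and 139 normalized counts in the GABA samples and 167, 228 and 155 in the Control samples (log2 fold change −0.15 ± 0.17). VLRA, the antigen receptor of a T cell-like lymphocyte of jawless vertebrates, had 163, 218 and 175 normalized counts in the GABA samples and 159, 261 and 108 in the Control samples (0.09 ± 0.26). The groups overlapped in both genes, and the Control samples of VLRA spanned the whole GABA range. CD62L (L-selectin), which guides leukocytes out of the blood, had 19, 12.2 and 15.8 normalized counts in the GABA samples and 11.3, 21.3 and 7.97 in the Control samples, and with 50 and 39 counts in all its log2 fold change of 0.22 had an interval of −0.66 to 1.11. A 2-fold higher level of CD62L in the GABA samples lay within that interval, and a 2-fold lower level lay outside it.

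The 4 leukocyte markers PTPRC, TLR2, VLRA and CD62L were all highest in Control replicate 2, and their summed normalized counts ranged from 445 to 579 in the GABA samples and from 431 to 731 in the Control samples. Without Control replicate 2 the log2 fold changes were −0.09 for PTPRC, 0.04 for TLR2, 0.48 for VLRA and 0.70 for CD62L. For VLRA the unadjusted p was then 0.0352 and the adjusted p 0.837 (edgeR), and for the other 3 the unadjusted p was 0.131 or more. An upward move follows from leaving out the highest Control sample. Without Control replicate 3, in which VLRA and CD62L were lowest, the values were −0.36 for PTPRC, −0.27 for TLR2, −0.17 for VLRA and −0.04 for CD62L. The sign of TLR2 thus changed only without Control replicate 2 and that of CD62L only without Control replicate 3. VLRA fell below 0 without Control replicate 3 and also without GABA replicate 2, at −0.05.

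**Figure D5:**
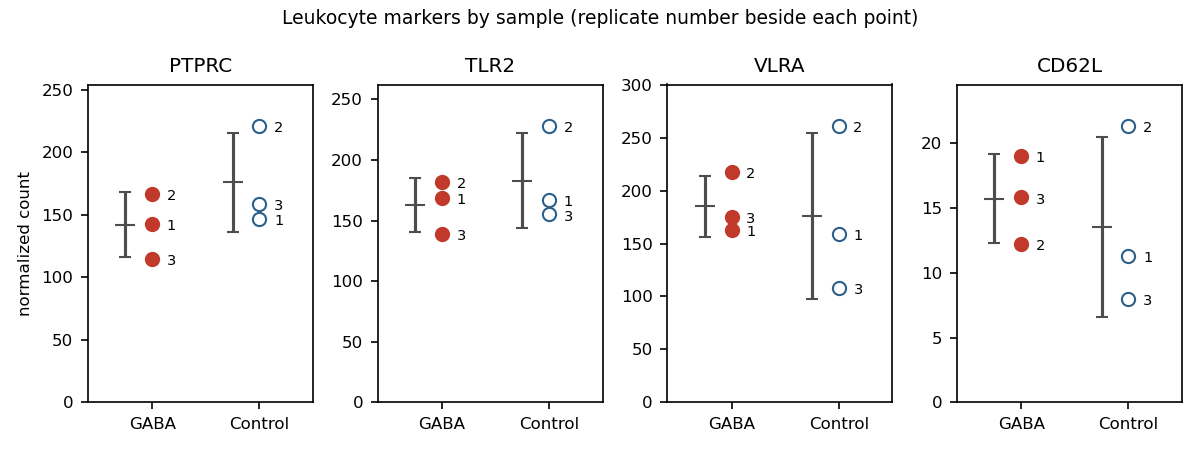
Normalized counts (y axis) of the leukocyte markers PTPRC, TLR2, VLRA and CD62L in the 3 GABA samples (filled red, left) and the 3 Control samples (open blue, right) of each panel, with the replicate number beside each point and the mean ± SD as a bar. Control replicate 2 is the highest point in all 4 panels.

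TNFAIP3, which restrains signalling to NF-κB, is named at 2 loci on the minus strand of contig PIZI01000054.1, 93 bases apart. The upstream locus in the direction of transcription, MSTRG.30682 (2094891 to 2103264), had 57, 52.6 and 34.5 normalized counts in the GABA samples and 39.5, 28.8 and 34.2 in the Control samples. Its log2 fold change was 0.50 ± 0.26 (SE; unadjusted p = 0.0713 and adjusted p = 0.797 by edgeR), and GABA replicate 3 lay within the Control range. The downstream locus, MSTRG.30681 (2088498 to 2094797), had 211, 175 and 142 normalized counts in the GABA samples and 185, 180 and 171 in the Control samples, at −0.01 ± 0.15. The GABA samples spanned the whole Control range at that locus.

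The upstream locus held 21.3%, 23.1% and 19.6% of the counts of the pair in the GABA samples and 17.6%, 13.8% and 16.7% in the Control samples. The shares averaged 21.3 ± 1.79% and 16 ± 1.98% (SD, n = 3 each) and did not overlap, and the two-sided exact permutation p was 0.1, the smallest that 3 against 3 can give. The pair held 296, 242 and 179 counts in the GABA samples and 239, 196 and 180 in the Control samples. The upstream locus gave only 63, 56 and 35 of these in the GABA samples and 42, 27 and 30 in the Control samples. How often such shares lie apart at other loci was not computed. Summed to a single value per sample, TNFAIP3 had 268, 227 and 176 normalized counts in the GABA samples and 225, 209 and 205 in the Control samples, with a log2 fold change of 0.09 ± 0.14 (adjusted p = 0.935 by edgeR). The pair of loci therefore gave different values for a single symbol, and whether they belong to a single transcript was not tested.

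The transcription and chromatin group holds SoxE1, HLF, SMAD6, GTF2IRD2, PHF2 and TOP2A, of which none passed the test (median −0.02, 2 above and 4 below 0, or 4 above and 2 below when scaled by library size only). SoxE1, a Sox transcription factor of neural crest and glia, had 607, 580 and 552 normalized counts in the GABA samples and 620, 621 and 532 in the Control samples. The groups overlapped, with a log2 fold change of −0.02 ± 0.09 (SE; adjusted p = 0.989 by edgeR). PHF2 is annotated as a plant homeodomain finger protein of the lsd1/2 complex. It had 70.6, 27.2 and 17.7 normalized counts in the GABA samples and 67.7, 37.3 and 98 in the Control samples. Its samples differed up to several-fold within each group, its biological coefficient of variation was 36.9% against a median of 11.8% for the 40 loci, and its log2 fold change of −0.78 ± 0.45 (SE; 95% interval −1.76 to 0.20) had an adjusted p of 0.8 by edgeR.

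The size of the PHF2 value changed with several samples: it was −1.55 without GABA replicate 1 (unadjusted p = 0.00235, adjusted p = 0.415 by edgeR), −0.45 without GABA replicate 3 (unadjusted p = 0.316) and −0.44 without Control replicate 3 (unadjusted p = 0.373). GTF2IRD2, a protein of the TFII-I family, likewise had 155, 85.5 and 58.1 normalized counts in the GABA samples and 101, 76.7 and 62.7 in the Control samples. Its log2 fold change was 0.32 ± 0.31, and with each sample left out in turn it lay between −0.14 (GABA replicate 1 left out) and 0.59 (GABA replicate 3 left out). HLF, a transcription factor of the PAR bZIP family linked to daily rhythms, stood at 0.23 ± 0.18 (0.05 without Control replicate 3), SMAD6, an inhibitor of BMP signalling, at −0.14 ± 0.13, and TOP2A, which untangles DNA in dividing cells, at −0.03 ± 0.11. TOP2A had 190 to 219 normalized counts in the GABA samples and 203 to 232 in the Control samples.

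The metabolic group holds TAT, CDO1, DHDH, SQOR and TMRT61A, and none passed the test (median 0.08, 4 above and 1 below 0, or 2 above and 3 below without GABA replicate 1 or without Control replicate 2). TAT, which takes the first step of tyrosine breakdown, had 5619, 5194 and 4100 normalized counts in the GABA samples and 5209, 3435 and 5646 in the Control samples. The GABA samples lay within the Control range, and the log2 fold change was 0.08 ± 0.16 (SE; adjusted p = 0.951 by edgeR). DHDH, a dehydrogenase of dihydrodiols, had 2679, 3073 and 2279 normalized counts in the GABA samples and 2852, 1869 and 1934 in the Control samples. Control replicate 1 lay among the GABA samples, and the log2 fold change was 0.28 ± 0.15 (95% interval −0.05 to 0.62; unadjusted p = 0.0865, adjusted p = 0.797 by edgeR). Without Control replicate 1 it was 0.51, with an adjusted p of 0.392 (edgeR), without GABA replicate 2 it was 0.17, and without Control replicate 2 or 3 it was 0.18.

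CDO1, which oxidises cysteine on the way to taurine, had 512, 445 and 484 normalized counts in the GABA samples and 610, 425 and 711 in the Control samples. Control replicate 2 was the lowest of the 6 samples, and the log2 fold change was −0.26 ± 0.15 (adjusted p = 0.798 by edgeR), −0.44 without that sample (adjusted p = 0.837) and −0.11 without Control replicate 3. SQOR, which oxidises hydrogen sulfide in mitochondria, stood at 0.07 ± 0.17. It had 1169 normalized counts in GABA replicate 1 against 712 and 775 in the other GABA samples, and 751 to 1054 in the Control samples, and its value was −0.18 without GABA replicate 1 and 0.23 without Control replicate 3. TMRT61A, the name given to a subunit that methylates adenosine in tRNA, stood at 0.10 ± 0.11.

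The extracellular group holds PRG4, COL6A6, FBN1, SPON2 and PAPPA, and none passed the test (median 0.01, 3 above and 2 below 0, or 1 above and 4 below with DESeq2's size factors). COL6A6, a chain of the beaded-filament collagen VI, had 84.2, 100 and 98.5 normalized counts in the GABA samples and 78, 76.7 and 83.2 in the Control samples. Every GABA sample lay above every Control sample, but the highest Control sample and the lowest GABA sample differed by 1 normalized count, and the log2 fold change was 0.27 ± 0.16 (95% interval −0.08 to 0.62; adjusted p = 0.807 by edgeR). The value lay between 0.21 and 0.35 in all alternatives that gave one. The locus lies on contig PIZI01000004.1 at 3696114 to 3704798, on the plus strand, in 5 exon blocks.

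SPON2, a secreted matrix protein, had 891, 760 and 672 normalized counts in the GABA samples and 781, 794 and 763 in the Control samples. The GABA samples lay on either side of the Control samples, with a log2 fold change of 0.01 ± 0.10 (adjusted p = 0.997 by edgeR). FBN1, the main protein of elastic microfibrils, stood at 0.01 ± 0.18, and PAPPA, a protease that cleaves binding proteins of insulin-like growth factors, at −0.08 ± 0.13. The PAPPA value was −0.29 without GABA replicate 3 (unadjusted p = 0.0109, adjusted p = 0.937 by edgeR) and 0.03 without GABA replicate 1. PRG4, a lubricating proteoglycan, had 339, 336 and 280 normalized counts in the GABA samples and 399, 482 and 280 in the Control samples. Its log2 fold change was −0.27 ± 0.17 (adjusted p = 0.816), and it was −0.08 without Control replicate 2 (unadjusted p = 0.607) and −0.46 without Control replicate 3 (unadjusted p = 0.00326, adjusted p = 0.856 by edgeR). The summed normalized counts of the connective tissue markers COL6A6, FBN1, PRG4 and SPON2 were 1318 to 1662 in the GABA samples and 1389 to 1713 in the Control samples.

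Of the synapse and cytoskeleton group, 3 of 4 loci were tested and none passed. CPLX1 (complexin), which binds the SNARE complexes that release transmitter, had 10944, 10984 and 13201 normalized counts in the GABA samples and 12877, 11110 and 12095 in the Control samples. The groups overlapped, and the log2 fold change was −0.02 ± 0.09 (SE; 95% interval −0.21 to 0.17; adjusted p = 0.982 by edgeR). LIMD2, a small LIM domain protein linked in mammals to cell movement, had 695, 623 and 583 normalized counts in the GABA samples and 635, 655 and 497 in the Control samples, at 0.10 ± 0.11 (adjusted p = 0.901 by edgeR). CASK, a scaffold of the presynaptic membrane, stood at 0.03 ± 0.12. MAP6, which stabilises microtubules in neurons, was not tested, with 12 counts in the GABA samples and 12 in the Control samples.

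The protein quality control group holds DNAJB4, a co-chaperone of heat shock proteins, and RNF24, a RING finger protein. The annotation of RNF24 names only the RING finger, so its place in this group is an assignment made here. DNAJB4 had 775, 698 and 698 normalized counts in the GABA samples and 680, 668 and 731 in the Control samples. Control replicate 3 lay within the GABA range, and the log2 fold change was 0.08 ± 0.08 (adjusted p = 0.882 by edgeR). RNF24 had 359, 343 and 335 normalized counts in the GABA samples and 315, 497 and 366 in the Control samples, with a log2 fold change of −0.17 ± 0.15 (adjusted p = 0.867 by edgeR), and Control replicate 1 was the lowest and Control replicate 2 the highest of all. The value was −0.31 without Control replicate 1 (unadjusted p = 0.0457, adjusted p = 0.658 by edgeR) and 0.04 without Control replicate 2.

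PRP2 and ENOD2A carry names of plant proline-rich cell wall proteins. PRP2 had 4648, 6200 and 5357 normalized counts in the GABA samples and 5672, 5710 and 5093 in the Control samples. The GABA samples lay on both sides of the Control samples (log2 fold change −0.01 ± 0.10; adjusted p = 0.997 by edgeR). ENOD2A was not tested, with 6 counts in all GABA samples and 1 in all Control samples, too few to compare. PRP2 shared 49.6% of its exon bases with a locus on the opposite strand, the largest such share of the 42 loci, of which 12 shared any exon bases and none with a locus on its own strand. Counting used strand.

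The wider pathways around these genes were looked up by name in the lists of both experiments. Of 15 loci matched by symbol or annotation to genes that respond to stress hormones or immediate signals in other vertebrates, all were tested. Of these, 0 had an adjusted p under 0.05, and 5 had a log2 fold change above and 10 below 0 (median −0.12, range −0.42 to 0.50). Over all loci tested, 48.5% were below 0. Those of the 15 with an unadjusted p under 0.05 were 0 higher, against 3.08% of all loci tested, and 2 lower, against 3.47%. The 2 are CREM and KLF10, which are not among the 42 loci but among those set aside by name. NFKBIE, which had the lowest value, −0.42, was also set aside. Of the 10 members of this list that are among the 42 loci, TAT, SGK1, PIM3, HLF and the upstream TNFAIP3 locus were above 0. The 4 loci of amino acid breakdown were TAT, CDO1, SQOR and the enzyme that opens the ring of tryptophan, with 2 above and 2 below 0 (median −0.02), and the 6 matrix loci had 3 above and 3 below 0 (median −0.02). None of these passed the test.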

How the data were processed

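Polyadenylated mRNA was sequenced in paired-end libraries that keep the strand. According to the methods of the study, the authors cleaned the reads with fastp and mapped them to Pmar_germline 1.0 with STAR. Loci were then assembled by StringTie, and featureCounts gave the strand-specific fragments per locus, for fragments with both ends mapped and not chimeric. The deposited values are whole-number counts without normalization for 57134 loci, of which 2 broken over lines were rejoined. The fold changes and p-values in the study's lists of loci were not used.

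Tests used edgeR 4.0.16 in R 4.3.3 on the 24300 loci that filterByExpr kept, with TMM scaling (quasi-likelihood, two-sided, treatment as the only term, Benjamini-Hochberg over all loci tested, threshold 0.05). The study used DESeq2, which was run as an alternative (1.42.0), as was limma-voom (3.58.1). For normalized counts, each count was divided by the size factor DESeq2 gave its sample (0.878 to 1.10). FPKM values were computed here. With 3 samples against 3, an exact permutation test cannot give a two-sided p below 0.1. The edgeR and DESeq2 fits were checked on simulated counts with known changes, which were placed only in loci with a mean count of at least 100. Of the 40 loci tested here, 34 reached that mean, and the check does not show how changes are found at the rest. How many of the known changes were found is not given here, so no power of the tests is claimed from the check. Other settings were scaling by library size only or by the size factors of DESeq2, dropping the count filter or setting it at a mean of 100, a term for the replicate number, and leaving out each sample in turn.

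The members, functional groups and lists were chosen with earlier results of these data known. Values in every sample were given for loci with an unadjusted p under 0.05 or groups that do not overlap, both loci of DYRK2 and TNFAIP3, the immune genes, the most abundant locus and, in each functional group, the loci with the smallest p and the most counts. Those of GTF2IRD2, CDO1, SQOR and PRG4, and the values with single samples left out that are printed beside genes, were chosen after they were seen. The test of the share within each pair of loci was not among the planned tests.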

Additional observations from a re-analysis of the deposited data

How the results depend on the processing

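Over all loci, the count with an adjusted p under 0.05 was 0 with edgeR and 23 with DESeq2 at its default settings, 7 with DESeq2 without independent filtering and 58 with edgeR and no count filter. Among the 42 loci it was 0 in all 14 alternatives, though not all of them could be called in each. The default filter of DESeq2 gave many of them no adjusted p, and 34 were tested at a mean count of at least 100. At an unadjusted p under 0.05, loci with higher counts in the GABA samples numbered 0, against 1 without a count filter, 1 with the replicate block and 0 to 2 with a sample left out. Loci with lower counts numbered 1, against 4 without a count filter and 1 to 2 with a sample left out. Over all loci tested, 1591 of 24300 had such a p in either direction. This was 3012 of 54031 without a count filter and 1332 of 24300 with the replicate block. With a sample left out it lay between 1104 of 25056 (GABA replicate 2) and 2247 of 25295 (GABA replicate 1). Among the loci described here, 19 were above 0, and 12 to 21 with a sample left out, lowest without Control replicate 3. Those whose groups did not overlap numbered 2, and 3 when scaled by library size only. With a sample left out they numbered 5 to 7, where fewer samples have to lie apart. For all loci tested, that share was computed only in the main setting (12.2%), so these other counts have no background. The median log2 fold change lay between −0.05 and 0.03. Scaling by library size only, which gave the 0.03, also moved the median of all loci tested from 0.01 to 0.05. Of the 40 loci tested, 21 changed sign in at least 1 alternative, 13 of them only with a sample left out, and the largest of these had a log2 fold change of 0.32 (GTF2IRD2). The cause of these shifts was not tested. Deviations of same-numbered samples correlated at −0.112, 0.0323 and −0.116, which shows no strong shared effect of the replicate number. These values cannot tell whether same-numbered samples were handled together. The replicate block gave 0 adjusted calls. The intervals were widest for PHF2, at ±0.98, which limits what can be said of it.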
